A study of Mus musculus with 12 samples.

Results

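Triglyceride assembly in the fetal liver was followed through 9 genes, *Gpam*, *Agpat2*, *Agpat3*, *Lpin1*, *Lpin2*, *Lpin3*, *Dgat1*, *Dgat2* and *Mogat1*, out of 19938 genes measured. They were chosen for their place in the pathway, with earlier results of these data known, and were matched by symbol. Each had 1 probeset with a single gene symbol, which gave the value used. Whole livers came from 6 *Ppara*-/- and 6 *Ppara*+/+ mouse fetuses at embryonic day E19.5, just before birth, with 1 array per liver. The parents were heterozygous and the fetuses were delivered by cesarean section. The null allele of *Ppara*, which encodes the fatty acid-activated nuclear receptor PPARα, is carried in every cell of the fetus, so the comparison is not limited to the hepatocyte. No group was treated. The strain is SV129 in the labels but a different one in the study's methods, and by those methods some livers shared a litter that the labels do not identify. All values are log2 signals of the probeset, and all differences are *Ppara*-/- minus *Ppara*+/+ on that scale.

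Hepatocytes build triglyceride by adding fatty acids one at a time to glycerol-3-phosphate. GPAT1, encoded by *Gpam*, adds the first at the mitochondrial outer membrane and the AGPAT enzymes add the second, giving phosphatidate. Lipins remove its phosphate to give diacylglycerol, and DGAT enzymes add the last fatty acid. MOGAT enzymes reach diacylglycerol by another route, from monoacylglycerol. The finished triglyceride is stored in lipid droplets or exported in very low density lipoprotein, and PPARα is best known in liver for the opposite direction, the oxidation of fatty acids.

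The promoter sequences are given here because PPARα acts by binding DNA near its target genes, so that the letters beside each start site can be read together with the array values. No window was at hand for *Dgat1* and *Dgat2*. RefSeq (GRCm38.p6) windows from 250 bases before to 50 after a start site were at hand for 7 of the 9 genes, 11 windows in all. They were searched on both strands for the peroxisome proliferator element, AGGTCA repeated after any 1 base, and for the glucocorticoid element, AGAACA and TGTTCT with any 3 bases between, allowing up to 2 mismatches to the letters given. The first was found in 1268 of 32851 mouse promoter windows (3.86%) and the second in 606 (1.84%). Among the 11 windows only that of *Mogat1* held either, a peroxisome proliferator element with 2 mismatches from base -51 to base -39, shown in capitals in the 250 bases before its start at chr1:78510810-78511059, plus strand. The same stretch of *Lpin1*, the gene with the largest difference of the 9, lies at chr12:16610967-16611216, minus strand, and held no match.

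Mogat1: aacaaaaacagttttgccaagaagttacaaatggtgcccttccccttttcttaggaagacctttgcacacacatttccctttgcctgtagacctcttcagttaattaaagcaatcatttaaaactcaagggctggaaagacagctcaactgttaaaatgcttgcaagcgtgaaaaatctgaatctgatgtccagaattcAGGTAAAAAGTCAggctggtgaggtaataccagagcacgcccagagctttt
Lpin1: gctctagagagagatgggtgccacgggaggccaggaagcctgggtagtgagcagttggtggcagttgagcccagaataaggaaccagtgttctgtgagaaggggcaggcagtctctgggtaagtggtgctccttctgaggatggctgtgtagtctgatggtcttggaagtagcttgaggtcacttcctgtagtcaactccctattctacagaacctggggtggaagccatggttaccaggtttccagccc

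The capitals mark a match of letters and not a bound site, and the absence of a match covers only these windows and motifs.

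The arrays were alike in overall signal, with medians from 6.71 to 6.75 and correlations between arrays from 0.9882 to 0.9955. *Ppara* itself was 9.83 ± 0.09 in *Ppara*-/- and 10.84 ± 0.10 in *Ppara*+/+ livers (SD, n = 6 each), a fall of 1.01 that separated every liver of one genotype from every liver of the other (limma, adjusted p = 3.6e-08). The sources used here do not say whether its probeset lies in the deleted stretch. None of 7 hepatocyte markers was called, and their mean signal ran from 13.35 to 13.37 in *Ppara*-/- and from 13.32 to 13.39 in *Ppara*+/+ livers. These means lie near the highest value on the arrays, 13.91, where a change may show less. None of 5 erythroid markers was called either, with mean signals from 11.36 to 11.52 and from 11.23 to 11.51. By *Xist* and Y-linked signals, 5 *Ppara*-/- and 3 *Ppara*+/+ livers were female. The animal numbers in the labels ran in blocks. *Ppara*-/- mouse 1 and *Ppara*+/+ mice 1 to 4 held the 5 lowest, *Ppara*-/- mice 2 to 6 came next, and *Ppara*+/+ mice 5 and 6 held the 2 highest. Where the 6 lowest numbers are used below, they hold *Ppara*-/- mice 1 and 2 and *Ppara*+/+ mice 1 to 4. The 6 highest hold *Ppara*-/- mice 3 to 6 and *Ppara*+/+ mice 5 and 6. This cut parts *Ppara*-/- mouse 2 from the rest of its block, so these small and unequal sets still mix blocks. In whole tissue, fewer cells of a type and less RNA per cell cannot be told apart.

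None of the 9 assembly genes differed between the genotypes at an adjusted p of 0.05. Over all genes tested, limma called 1443 of 19938 (7.24%), of which 761 were lower (3.82%) and 682 higher (3.42%) in *Ppara*-/- livers. The adjusted p-values of the 9 ranged from 0.11 to 0.83. An unadjusted p under 0.05 was reached by 3 of them, *Gpam*, *Agpat3* and *Lpin1*, against 20.9% of all genes. For 0 of the 9 did the genotypes separate without overlap, against 3.59% of all genes, 2.29% with every *Ppara*-/- liver lower and 1.3% with every one higher. Differences were negative for 5 and positive for 4, with a median of -0.03 against 0.01 over all genes and a median size of 0.12 against 0.07.

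The limma intervals give the size of change in signal these arrays leave room for, with livers taken as independent although some shared a litter. For 8 of the 9 genes, all but *Lpin1*, the 95% interval of the difference lay within a 1.3-fold change in either direction, which is 0.38 on the log2 scale. Among these 8, *Mogat1* and *Lpin3* were dim, with mean signals of 4.85 and 6.44. Their intervals bound the signal, and may not bound a change in transcript. The median size of the difference among all called genes was 0.31, and the smallest was 0.13. The SE of the assembly genes ran from 0.04 for *Agpat3* and *Dgat2* to 0.15 for *Lpin1*.

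**Figure D1:**
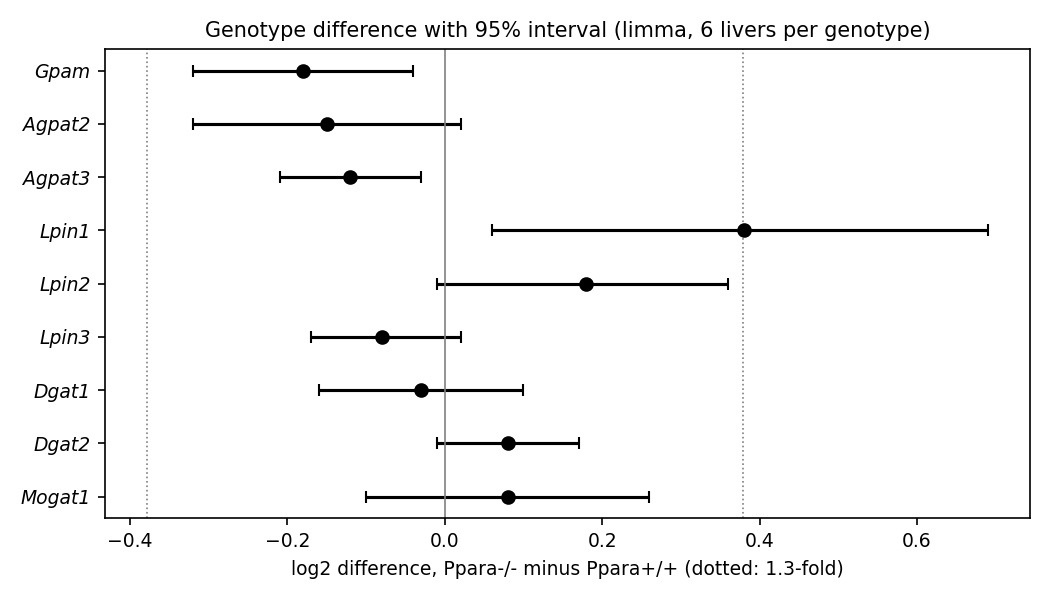
Difference in log2 signal between *Ppara*-/- and *Ppara*+/+ livers for the 9 assembly genes, with points at the limma estimate and bars over its 95% interval (6 livers per genotype). Dotted lines mark a 1.3-fold change, and only the interval of *Lpin1*, from 0.06 to 0.69, runs past one.

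The first enzyme of the pathway had a lower mean without PPARα, but the genotypes overlapped. *Gpam* signals in *Ppara*+/+ mice 1 to 6 were 11.32, 11.26, 11.40, 11.40, 11.04 and 11.09. In *Ppara*-/- mice 1 to 6 they were 11.04, 11.11, 11.15, 11.05, 11.01 and 11.09. The *Ppara*-/- livers were tightly grouped, while the *Ppara*+/+ livers fell into 4 above every *Ppara*-/- liver and 2, mice 5 and 6, among them. The means were 11.07 ± 0.05 and 11.25 ± 0.16 (SD, n = 6 each), a difference of -0.18 (SE 0.06, limma, adjusted p = 0.12). Mice 5 and 6 are the *Ppara*+/+ livers with the highest animal numbers, and the *Gpam* difference was -0.27 among the 6 lowest animal numbers (adjusted p = 0.19) and 0.01 among the 6 highest (adjusted p = 0.97). Without *Ppara*+/+ mouse 5 it was -0.22 and passed the threshold (adjusted p = 0.042, with 6.33% of all genes called).

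At the second step the genotypes overlapped for both acyltransferases. *Agpat3*, an AGPAT family enzyme, ranged from 10.83 to 10.94 with a median of 10.88 in *Ppara*-/- livers and from 10.90 to 11.05 with a median of 11.02 in *Ppara*+/+ livers. The ranges met at their edges, with *Ppara*+/+ mouse 6 inside the *Ppara*-/- range, and the difference was -0.12 (SE 0.04, limma, adjusted p = 0.11). It passed the threshold in limma with genes under the 50th percentile of signal left out (adjusted p = 0.040, with 20.2% of the genes kept called), with an intensity trend and robust settings (0.049, with 8.76% called) and with array weights (0.041, with 13.8% called). The *Agpat3* difference was -0.18 among the 6 lowest animal numbers (adjusted p = 0.35), -0.03 among the 6 highest (adjusted p = 0.91) and -0.11 with these sets as a block (adjusted p = 0.23). *Agpat2*, whose loss in people causes generalised lipodystrophy, read 11.56, 11.25, 11.22, 11.15, 11.24 and 11.14 in *Ppara*-/- mice 1 to 6. The same probeset read 11.24, 11.50, 11.58, 11.55, 11.34 and 11.29 in *Ppara*+/+ mice 1 to 6. *Ppara*-/- mouse 1 stood apart from its group, at the level of the highest *Ppara*+/+ livers, and the other 5 lay between 11.14 and 11.25. The *Agpat2* difference was -0.15 (SE 0.08, limma, adjusted p = 0.30), and without *Ppara*-/- mouse 1 it was -0.21 (adjusted p = 0.051). The differences of *Agpat2* and *Agpat3* were -0.04 apart (95% interval -0.22 to 0.17, exact permutation test, adjusted p = 0.852).

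**Figure D2:**
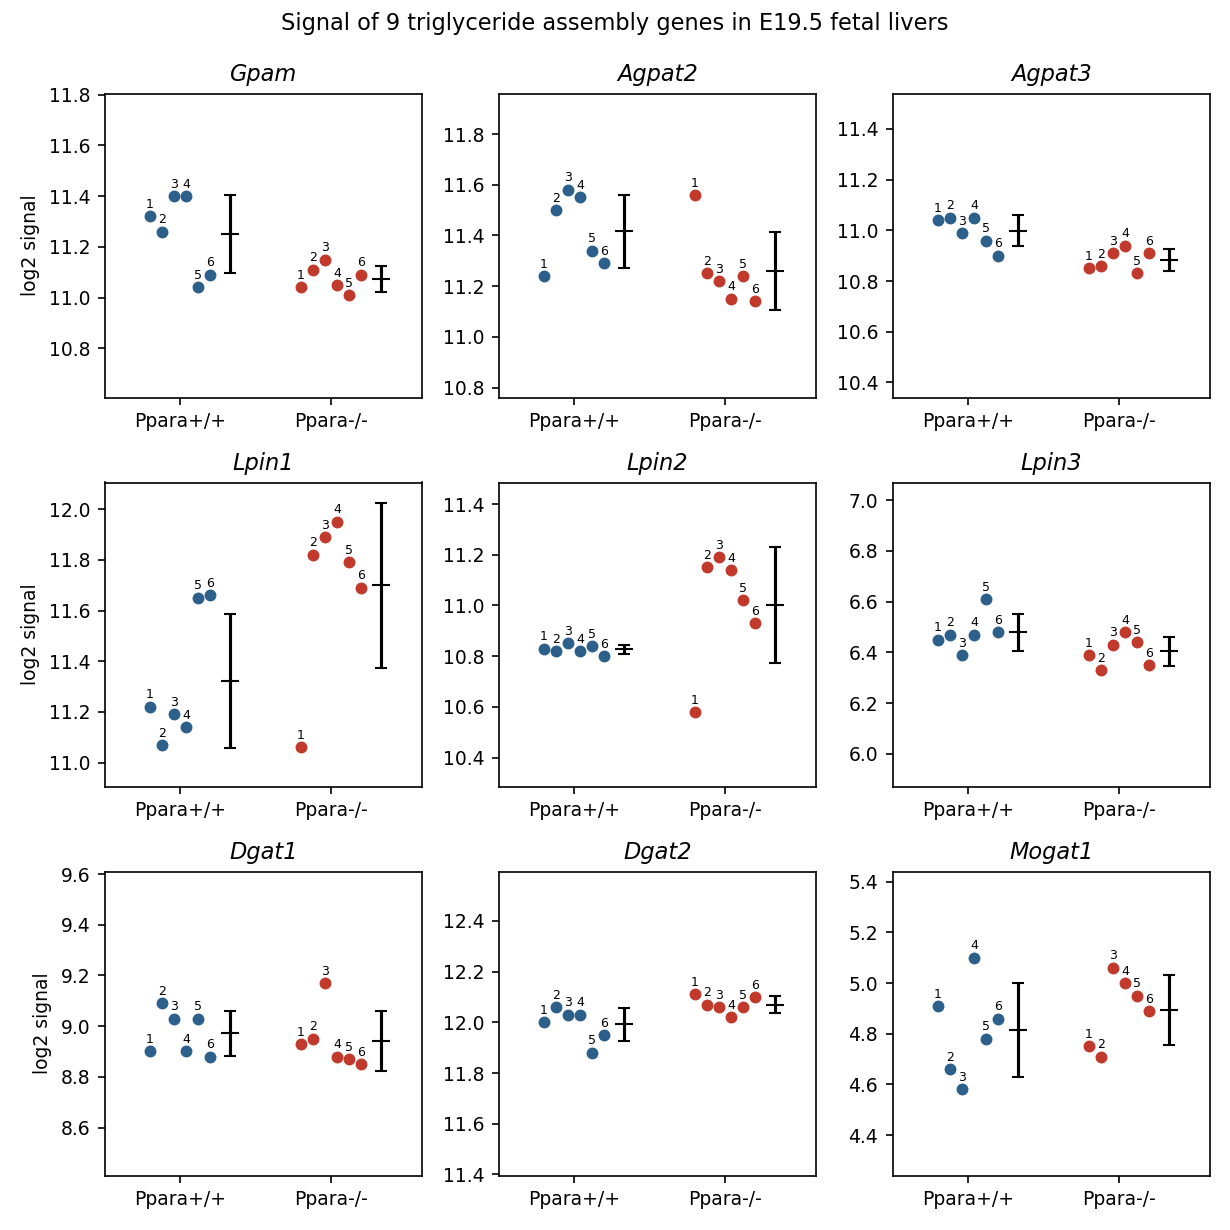
Log2 signal of the 9 assembly genes in each liver, by genotype, with the mouse number above each point and the mean and SD of 6 livers as a bar to the right. Each panel spans 1.2 log2 units, and the genotypes overlap in every panel. In those of *Lpin1* and *Lpin2*, *Ppara*-/- mouse 1 lies below all *Ppara*+/+ livers.

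The lipins *Lpin1* and *Lpin2* had the widest ranges over the 12 livers of the 9 genes, 0.90 and 0.62 log2 units. *Lpin1* encodes the phosphatidate phosphatase that is also a transcriptional coactivator of PPARα in liver. Its signals in *Ppara*-/- mice 1 to 6 were 11.06, 11.82, 11.89, 11.95, 11.79 and 11.69. In *Ppara*+/+ mice 1 to 6 they were 11.22, 11.07, 11.19, 11.14, 11.65 and 11.66. So 5 of 6 *Ppara*-/- livers lay above every *Ppara*+/+ liver, and the remaining one, mouse 1, lay below every one. The difference was 0.38 (SE 0.15), or 1.3-fold with a 95% interval of 1.05 to 1.62, and did not pass the threshold (limma, adjusted p = 0.15). Without *Ppara*-/- mouse 1 it was 0.51 and passed (adjusted p = 0.0076), in a comparison that called 12.6% of all genes.

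*Lpin1* also stepped between blocks of animal numbers within each genotype. The 5 livers with the lowest numbers were the 5 lowest in signal, *Ppara*-/- mouse 1 at 11.06 and *Ppara*+/+ mice 1 to 4 at 11.07 to 11.22. *Ppara*+/+ mice 5 and 6, with the highest numbers, were at 11.65 and 11.66, just under the other *Ppara*-/- livers. The 6 lowest animal numbers join *Ppara*-/- mice 1 and 2, at 11.06 and 11.82, from different blocks. Within the 6 lowest animal numbers the *Lpin1* difference was 0.29 (limma, adjusted p = 0.58), and within the 6 highest it was 0.17 (adjusted p = 0.49). With these sets of 6 as a block it was 0.23 (adjusted p = 0.28). With the number itself as a covariate it was 0.34 and passed the threshold (adjusted p = 0.033, with 9.21% of all genes called). *Ppargc1a*, the coactivator PGC-1α that is known to induce *Lpin1*, was singled out after its values were seen. It read 9.30, 10.11, 10.11, 10.18, 9.99 and 9.99 in *Ppara*-/- mice 1 to 6 and 9.37, 9.31, 9.32, 9.35, 9.83 and 9.89 in *Ppara*+/+ mice 1 to 6. Its low and high livers were those of *Lpin1*, and its difference of 0.43 did not pass the threshold either (limma, adjusted p = 0.093). What the animal number stands for, and its part in these differences, was not tested.

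*Lpin2*, a lipin whose mutation in people causes an inflammatory bone disease with anemia, had almost no spread among *Ppara*+/+ livers. Their signals were 10.83, 10.82, 10.85, 10.82, 10.84 and 10.80 in mice 1 to 6. In *Ppara*-/- mice 1 to 6 they were 10.58, 11.15, 11.19, 11.14, 11.02 and 10.93. As for *Lpin1*, 5 *Ppara*-/- livers were above all *Ppara*+/+ livers and mouse 1 was below all of them. Unlike *Lpin1*, the *Ppara*+/+ livers with high animal numbers, at 10.84 and 10.80, were level with the others. The difference of *Lpin2* was 0.18 (SE 0.08, limma, adjusted p = 0.26), and without *Ppara*-/- mouse 1 it was 0.26 (adjusted p = 0.0040). Within the 6 lowest animal numbers, which hold that liver, it was 0.03 (adjusted p = 0.94), and within the 6 highest it was 0.25 (adjusted p = 0.29).

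*Lpin3*, the least studied lipin, had a signal below the median of every array in every liver. It ranged from 6.33 to 6.48 with a median of 6.41 in *Ppara*-/- livers and from 6.39 to 6.61 with a median of 6.47 in *Ppara*+/+ livers, so the ranges largely overlapped. The difference was -0.08 (SE 0.05, limma, adjusted p = 0.38). The genotype differences of the 3 lipins were set against each other with exact two-sided permutation tests over the 924 arrangements of the livers, whose smallest possible p is 0.00216, adjusted over the 6 pairs of related genes compared. The difference of *Lpin1* exceeded that of *Lpin3* by 0.46 (95% interval 0.10 to 0.76, exact permutation p = 0.0238, adjusted p = 0.0974). That of *Lpin2* exceeded *Lpin3* by 0.25 (0.04 to 0.44, exact permutation p = 0.0325, adjusted p = 0.0974). *Lpin1* and *Lpin2* were 0.20 apart (-0.05 to 0.45, exact permutation, adjusted p = 0.201). No pair passed the threshold with all livers. Without *Ppara*-/- mouse 1 the gaps to *Lpin3* were 0.58 for *Lpin1* and 0.33 for *Lpin2*, each with an adjusted p of 0.013 in the exact permutation test. In both gaps the other 5 *Ppara*-/- livers lay above every *Ppara*+/+ liver. Leaving out mouse 1 thus separates the genotypes fully and sets this p at the smallest the test can give, so it adds no support.

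**Figure D3:**
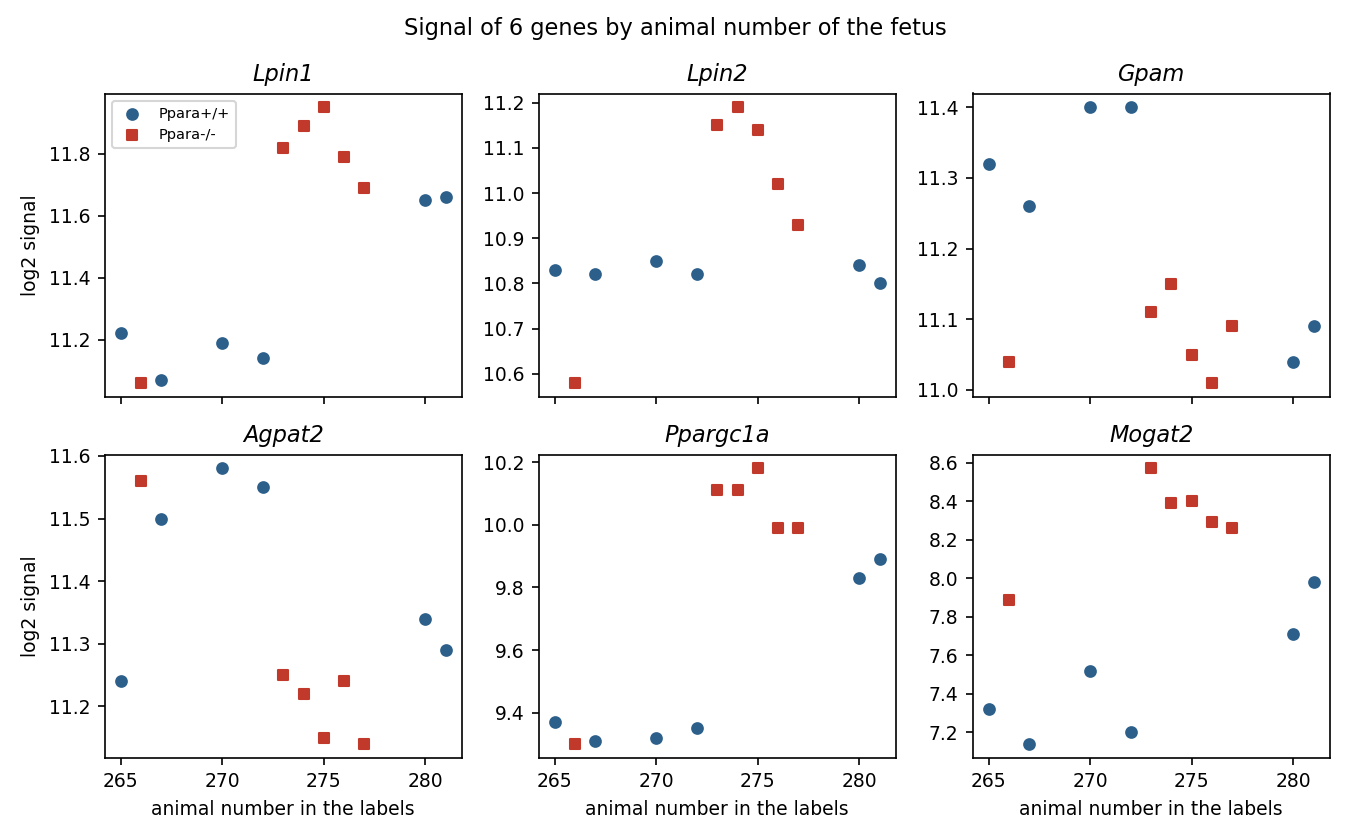
Log2 signal of *Lpin1*, *Lpin2*, *Gpam*, *Agpat2*, *Ppargc1a* and *Mogat2* in each liver against the animal number in its label, with circles for *Ppara*+/+ and squares for *Ppara*-/-. *Lpin1* and *Ppargc1a* are low in the 5 livers with the lowest numbers, of either genotype, and *Mogat2* is high in 5 of the 6 *Ppara*-/- livers.

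At the last step, catalysed by 2 unrelated enzymes, the genotypes overlapped. *Dgat2*, the DGAT that esterifies newly made fatty acids, ranged from 12.02 to 12.11 with a median of 12.07 in *Ppara*-/- livers. In *Ppara*+/+ livers it ranged from 11.88 to 12.06 with a median of 12.02, so that the groups overlapped between 12.02 and 12.06. The difference was 0.08 (SE 0.04, 95% interval -0.01 to 0.17, limma, adjusted p = 0.31). *Dgat1*, which re-esterifies fatty acids taken up from outside, ranged from 8.85 to 9.17 with a median of 8.90 in *Ppara*-/- livers and from 8.88 to 9.09 with a median of 8.97 in *Ppara*+/+ livers. Its groups overlapped almost wholly, with a difference of -0.03 (SE 0.06, 95% interval -0.16 to 0.10, limma, adjusted p = 0.83). The difference of *Dgat1* was 0.11 below that of *Dgat2*, a gap of -0.11 with an interval of -0.25 to 0.04 (exact permutation test, adjusted p = 0.201).

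*Mogat1*, the monoacylglycerol acyltransferase whose promoter window held the near match to a peroxisome proliferator element, was dim on these arrays, at the 16.9th percentile of mean signal over all genes. Its signals were 4.75, 4.71, 5.06, 5.0, 4.95 and 4.89 in *Ppara*-/- mice 1 to 6 and 4.91, 4.66, 4.58, 5.10, 4.78 and 4.86 in *Ppara*+/+ mice 1 to 6. Neither genotype stood above the other. The difference was 0.08 (SE 0.09, 95% interval -0.10 to 0.26, limma, adjusted p = 0.68), and it was 0.00 from that of *Dgat2* (interval -0.24 to 0.26, exact permutation test, adjusted p = 0.996). The files hold no detection call, so whether the probeset was above background is unknown.

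Around the 9 genes, 99 other measured genes of glycerolipid metabolism and its regulators held 20 that fell and 7 that rose in *Ppara*-/- livers. *Ppara* itself is among those that fell. Over all genes, 3.82% fell and 3.42% rose. They were taken from 7 lists, and the difference between any list and the 9 assembly genes was not tested. In the list named for glycerol-3-phosphate and acyl-CoA supply, 3 of 6 measured genes fell, 0 rose and 3 did not pass, with a median of -0.24. Not every gene in it supplies these substrates. *Acsl5*, a long-chain acyl-CoA synthetase, was 11.05 to 11.40 in *Ppara*-/- and 11.47 to 11.69 in *Ppara*+/+ livers and fell by 0.37 (limma, adjusted p = 0.0018). *Gpd2*, the mitochondrial enzyme that oxidises glycerol-3-phosphate to dihydroxyacetone phosphate and so consumes it, fell by 0.44 (adjusted p = 0.010). *Gpd1*, the cytosolic enzyme that interconverts the same compounds, fell by 0.37 (adjusted p = 0.040). The call of *Gpd1* ended when any 1 of *Ppara*-/- mice 2 to 6 or *Ppara*+/+ mice 1 to 4 was left out (adjusted p = 0.057 to 0.096) and with a block for the lower and upper 6 animal numbers (adjusted p = 0.069).

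Most relatives of the assembly enzymes did not pass the test. The share called was 15.8%, against 7.24% of all genes, and rests on 3 of 19 genes. With genes under the 50th percentile of signal left out, 3 were called again, where 20.2% of all genes kept were called. Of 19 other acyltransferases of the glycerolipid families, 2 fell, 1 rose and 16 did not pass, with a median of 0.00. *Mogat2*, the monoacylglycerol acyltransferase best known from the intestine, was 7.89, 8.57, 8.39, 8.40, 8.29 and 8.26 in *Ppara*-/- mice 1 to 6 and 7.32, 7.14, 7.52, 7.20, 7.71 and 7.98 in *Ppara*+/+ mice 1 to 6. In 5 of 6 *Ppara*-/- livers it was above every *Ppara*+/+ liver, and it rose by 0.82, or 1.77-fold (limma, adjusted p = 0.0026). Within the 6 lowest animal numbers the *Mogat2* difference was 0.94 (adjusted p = 0.057) and within the 6 highest 0.49 (adjusted p = 0.053). Of 5 small intestine markers, *Vil1* rose by 0.73 while *Fabp2* fell by 1.07 and *Apoa4* fell by 1.27 (limma, adjusted p = 2.1e-04, 0.0096 and 0.021), and *Cdx2* and *Lct* differed by 0.07 and 0.03 (adjusted p = 0.69 and 0.88). The *Apoa4* call ended when any 1 of *Ppara*-/- mice 2, 4, 5 and 6 or *Ppara*+/+ mice 1 to 4 was left out (adjusted p = 0.050 to 0.057). The mean of these markers was 6.42 to 6.85 in *Ppara*-/- and 6.54 to 7.03 in *Ppara*+/+ livers, and their part in the *Mogat2* difference was not tested. *Lpcat3*, which puts polyunsaturated chains into phosphatidylcholine, fell by 0.39 without overlap between the genotypes (adjusted p = 1.4e-04). *Gpat3*, another glycerol-3-phosphate acyltransferase in the endoplasmic reticulum, fell by 0.63 (adjusted p = 0.040). That call ended when any 1 of *Ppara*-/- mice 2 to 6 or *Ppara*+/+ mice 1 to 4 was left out (adjusted p = 0.053 to 0.097) and with the block of animal numbers (adjusted p = 0.090).

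Of 9 lipid phosphate phosphatases and lipin-controlling phosphatase subunits, 1 fell, 0 rose and 8 did not pass, with a median of 0.07. The one that fell was *Plpp1*, a cell surface lipid phosphate phosphatase, by 0.18 (limma, adjusted p = 0.039). The *Plpp1* call ended when any 1 of *Ppara*-/- mice 2, 4, 5 and 6 or *Ppara*+/+ mice 1, 2, 4 and 5 was left out (adjusted p = 0.051 to 0.093) and with the block of animal numbers (adjusted p = 0.082). *Ctdnep1*, which removes phosphates from the lipins, differed by 0.07 (adjusted p = 0.43). In the branch from phosphatidate and diacylglycerol to phospholipids, 3 of 23 fell, 1 rose and 19 did not pass, with a median of -0.05. *Chka* and *Chpt1*, the first and last enzymes of phosphatidylcholine synthesis from choline, fell by 0.67 (adjusted p = 0.0014) and 0.37 (adjusted p = 0.0065). *Pisd*, which makes phosphatidylethanolamine in mitochondria, fell by 0.19 (adjusted p = 0.016). *Dgkd*, a kinase that returns diacylglycerol to phosphatidate, rose by 0.28 without overlap (adjusted p = 0.0013).

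Triglyceride breakdown frees fatty acids one at a time, by way of diacylglycerol and monoacylglycerol. Among 12 measured genes of triglyceride breakdown, 5 fell, 1 rose and 6 did not pass, with a median of -0.21. *Abhd6*, a monoacylglycerol hydrolase, was 8.05 to 8.35 in *Ppara*-/- and 8.86 to 9.17 in *Ppara*+/+ livers and fell by 0.80 (limma, adjusted p = 1.5e-06). *Ces1d*, a liver carboxylesterase that mobilises stored triglyceride, was 10.47 to 11.08 against 11.33 to 11.88 and fell by 0.84 (adjusted p = 3.2e-04). *Mgll*, monoacylglycerol lipase, fell by 0.68 (adjusted p = 7.7e-04), and *Lipe*, hormone-sensitive lipase, fell by 0.36 (adjusted p = 0.0046). *Lipe* was the 1 of 7 adipocyte markers that was called, and the mean of those markers was 6.16 to 6.30 in *Ppara*-/- and 6.19 to 6.34 in *Ppara*+/+ livers. The other called genes, named after their values were seen, act on adipose triglyceride lipase in opposite ways. Its inhibitor *G0s2* fell by 0.48 (adjusted p = 0.012) and its activator *Abhd5* rose by 0.30 (adjusted p = 0.014), while the lipase itself, *Pnpla2*, differed by -0.16 (adjusted p = 0.070).

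**Figure D4:**
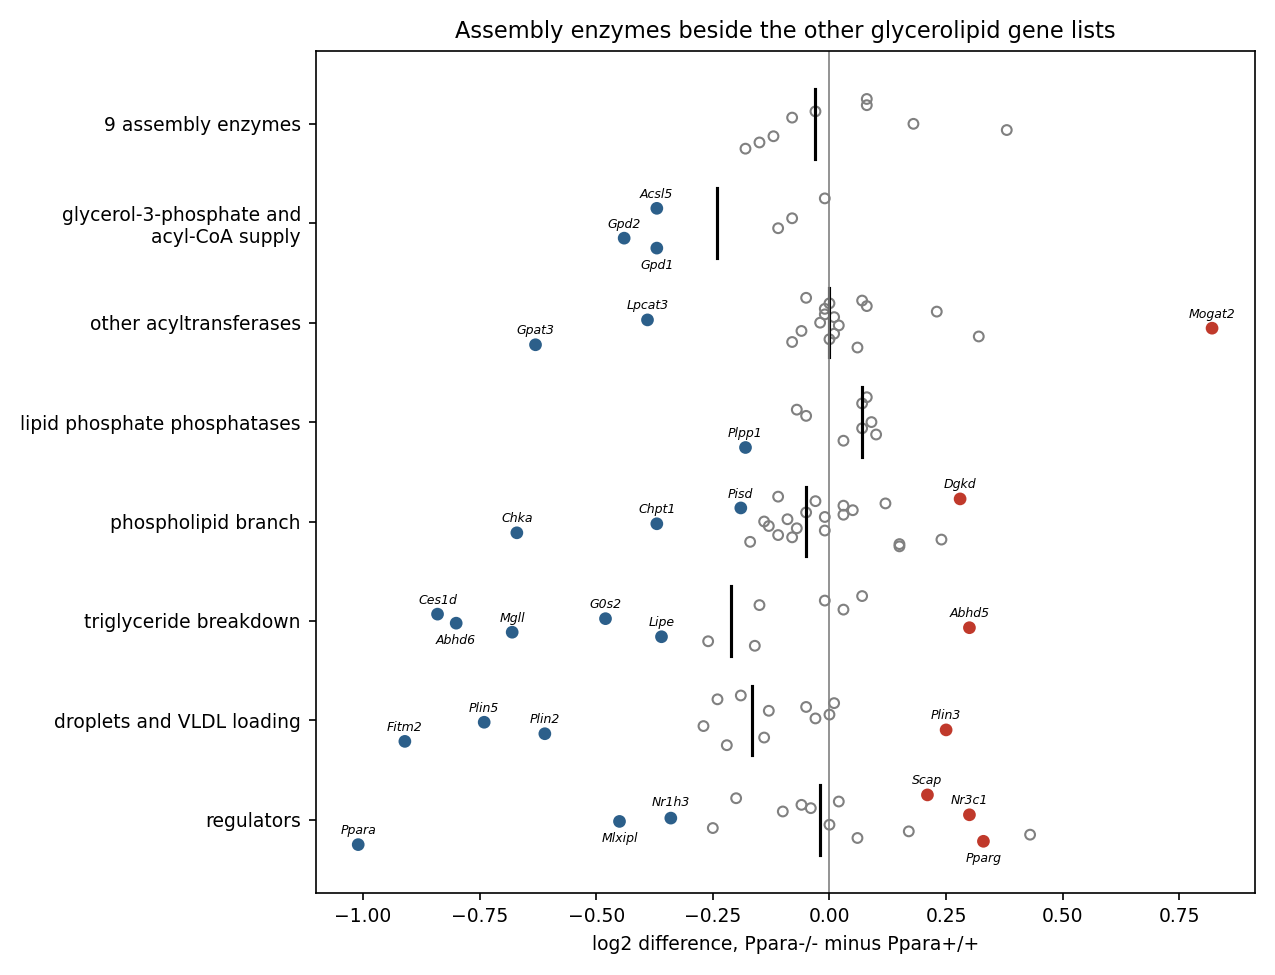
Difference in log2 signal between *Ppara*-/- and *Ppara*+/+ livers for each measured gene of 8 lists, with filled points for genes that fell (blue) or rose (red) at an adjusted p of 0.05 in limma, open points for the others and a bar at each list's median. The 9 assembly genes are all open and lie between -0.18 and 0.38.

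Of 14 genes that coat lipid droplets or load very low density lipoprotein, 3 fell, 1 rose and 10 did not pass, with a median of -0.16. *Fitm2*, which partitions triglyceride into droplets, was 7.66 to 7.86 in *Ppara*-/- and 8.48 to 8.88 in *Ppara*+/+ livers and fell by 0.91 (limma, adjusted p = 9.8e-07). The droplet coat proteins *Plin5* and *Plin2* fell by 0.74 (adjusted p = 7.8e-06) and 0.61 (adjusted p = 5.1e-05), each without overlap. *Plin3* rose by 0.25 (adjusted p = 0.041), a call lost when any 1 of *Ppara*-/- mice 2 to 6 or *Ppara*+/+ mice 1 to 5 was left out (adjusted p = 0.060 to 0.10) or the animal numbers were a block (adjusted p = 0.10). On the export side, chosen for their roles and not by their p, *Mttp*, which lipidates apolipoprotein B, differed by -0.05 (adjusted p = 0.71) and *Apob* by 0.01 (adjusted p = 0.89).

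Among 16 measured regulators, 3 fell, 3 rose and 10 did not pass, with a median of -0.02. The count of 6 ran from 2, without *Ppara*-/- mouse 2 or 4, to 9, without *Ppara*+/+ mouse 6, when 1 liver was left out. *Ppara* fell, as given above, and so did *Nr1h3*, the oxysterol receptor LXRα, by 0.34 (limma, adjusted p = 0.033). *Pparg*, a receptor that drives fat storage, rose by 0.33 (adjusted p = 0.021), and *Nr3c1*, the glucocorticoid receptor, rose by 0.30 (adjusted p = 0.0083). The study reports the opposite direction for *Nr3c1*, with less of its mRNA in *Ppara*-/- livers during development. Within the 6 lowest animal numbers the *Nr3c1* difference was 0.20 (limma, adjusted p = 0.48), and within the 6 highest it was 0.31 (adjusted p = 0.07). The *Nr1h3* call ended when any 1 of *Ppara*-/- mice 2, 4, 5 and 6 or *Ppara*+/+ mice 1 to 4 was left out (adjusted p = 0.061 to 0.080), and the *Pparg* call ended without *Ppara*-/- mouse 2 (adjusted p = 0.055) or mouse 4 (adjusted p = 0.053) and with the block of animal numbers (adjusted p = 0.055). Named after their values were seen, *Mlxipl*, the carbohydrate-response factor ChREBP, fell by 0.45 (adjusted p = 0.035) and *Scap*, which escorts SREBP proteins for cleavage, rose by 0.21 (adjusted p = 0.034). The *Mlxipl* call ended when any 1 of *Ppara*-/- mice 2 to 6 or *Ppara*+/+ mice 1 to 4 was left out (adjusted p = 0.062 to 0.086). The *Scap* call ended when any 1 of *Ppara*-/- mice 2 to 6 or *Ppara*+/+ mice 1, 3, 4 and 5 was left out (adjusted p = 0.054 to 0.086) and with the block of animal numbers (adjusted p = 0.080). *Srebf1*, the lipogenic SREBP gene, named for its role, differed by -0.25 (adjusted p = 0.22).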

How the data were processed

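Total RNA of 12 whole fetal livers was hybridized by the authors to Affymetrix Mouse Gene ST arrays, 1 liver per array. The deposited log2 values are per-probeset summaries from RMA, by which the authors corrected background and normalized between arrays. The sources used here do not give its version or a genome build. The table held 35556 probesets with values from 1.95 to 13.91. With no read depth, the precision rests on the number of arrays. A probe table named 1 gene for 21789 probesets, several for 1621 and none for 12146, and 21698 matched the RefSeq table (GRCm38.p6) by gene ID. For 999 genes with several probesets the one with the highest mean was taken, which left 19938 genes without a filter on dim signal.

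Groups follow the labelled genotype, 6 livers against 6, and all genes were fitted together with lmFit and eBayes of limma 3.58.1 (R 4.3.3), two-sided, without covariates. Benjamini-Hochberg adjustment ran over all genes, and called means an adjusted p under 0.05. Since some livers share a litter, p-values measure the spread between these samples. Pairs of related genes were compared by exact permutation of each liver's difference in signal. Tables and plots were made with Python 3.11.15, SciPy 1.17.1 and matplotlib 3.10.9.

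The 9 genes and the lists were chosen with earlier results of these data known. Named genes were the 9, *Ppara* and the 4 genes of smallest p in each list, with the marker genes and others named outside this rule given as such in the text. Genes most like a member in pattern were to be named for called members alone, and there were none. In marker lists of other cells, against 7.24% of all genes, calls were 0 of 8 for granulocytes and 1 of 8 for macrophages (*Cd5l* higher). They were 0 of 4 for megakaryocytes, 2 of 7 for stellate cells (*Des* lower, *Reln* higher) and 0 of 6 for endothelium. For bile ducts they were 0 of 4 and for pancreas 1 of 4 (*Cela1* higher). Genes without a probeset of 1 symbol (*Gk*, *Acsl1*, *Acsl3*, *Soat1*, *Soat2*, *Chkb*, *Etnk2*, *Lipc* and *Nr1h2*) were not analysed here. The procedure was tested on simulated data with few genes changed. There it called 13 of 67 changes of 0.2 log2 units (19.4%), 61 of 67 of 0.5 (91%) and 66 of 66 of 1. In that setting, most true changes of 0.2 were not called.

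The alternatives were renewed quantile normalization, arrays shifted to one median, leaving out genes under the 25th or 50th percentile of signal, the mean of all probesets or every probeset on its own, the mouse number as a block, array weights, an intensity trend with robust settings, sex score, erythroid score or animal number as covariates, the lower and upper 6 animal numbers as a block and on their own, an exact Mann-Whitney test, and each liver left out in turn.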

Additional observations from a re-analysis of the deposited data

Results flagged for a closer look

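A single liver stood apart from the other 5 of its genotype, by Dixon's test at the 95% level, in 9 of 74 gene and genotype groups tested over 37 genes. Chance gives about 1 in 20 for independent groups, but these groups share the same livers. *Ppara*-/- mouse 1 was that liver in 5 of the 9, the lowest for *Lpin1* at 11.06 (gap 0.704 of the range), *Agpat4* at 7.88 (0.729), *Plin3* at 8.99 (0.707) and *Nr3c1* at 9.57 (0.8), and the highest for *Agpat2* at 11.56 (0.745). This liver also stood apart over all genes. On the first principal component, the main axis of spread between livers, it scored -1.86, against 9.82 to 20.87 in the other *Ppara*-/- livers. Its array weight, 0.57, was the lowest of the 12. The other outlier among the assembly genes was *Ppara*-/- mouse 3, highest for *Dgat1* at 9.17 (0.678).

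*Ppara*-/- mouse 2 was highest for *Fitm2* at 7.86 (0.828), *Ppara*+/+ mouse 4 was highest for *Plin5* at 9.0 (0.661) and *Ppara*+/+ mouse 6 was lowest for *Chka* at 9.04 (0.724). *Agpat4*, an acyltransferase of lysophosphatidate, differed by 0.32 (limma, adjusted p = 0.11), and without *Ppara*-/- mouse 1 by 0.41 (adjusted p = 0.013). The part of sex, litter or animal number in these outliers was not tested.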

How the results depend on the processing

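Of 19938 genes limma called 1443. The count was 2743 with array weights, 850 with the sex score, 936 with a block for the lower and upper 6 animal numbers, 193 within the 6 lowest numbers, 223 within the 6 highest, and 851 to 2521 when 1 liver was left out. The exact Mann-Whitney test called 0 of all genes, 0 assembly genes and 0 pathway genes after adjustment, since the smallest adjusted p it reached was 0.0598, and 3677, 2 and 38 of them before it. Of the 9 assembly genes 1 was called with the filter at the 50th percentile (20.2% of the genes kept), 1 with an intensity trend (8.76%), 1 with the animal number as covariate and 3 with array weights (13.8%), and 0 to 2 without 1 liver. *Agpat3* was the gene with the filter (-0.12, adjusted p = 0.040) and the trend (-0.12, 0.049). Array weights called *Agpat3* (-0.13, 0.041), *Gpam* (-0.19, 0.049) and *Lpin1* (0.45, 0.025), and the covariate called *Lpin1* (0.34, 0.033). Without 1 liver, *Gpam* ran from -0.22 to -0.15, *Lpin1* from 0.33 to 0.51 and *Lpin2* from 0.14 to 0.26. *Gpam* changed sign within the highest numbers (0.01) and *Mogat1* within the lowest (-0.08). The gap of *Dgat2* and *Mogat1* was 0.01 after quantile normalization and -0.05 to 0.05 without 1 liver, that of *Lpin1* and *Lpin3* 0.41 to 0.58 and that of *Lpin2* and *Lpin3* 0.21 to 0.33. The pathway genes called, 27, were 9 within the lowest numbers, 4 within the highest and 19 to 32 without 1 liver. The cause of these shifts was not tested. With the sex score as a covariate the calls of *Gpd1*, *Gpat3*, *Plpp1*, *Plin3*, *Pparg*, *Nr1h3*, *Mlxipl* and *Apoa4* were lost (adjusted p = 0.055 to 0.11). With the erythroid score as a covariate 1079 genes were called. The calls of *Gpd1*, *Gpat3*, *Plpp1*, *Plin3*, *Nr1h3*, *Mlxipl* and *Scap* were then lost (limma, adjusted p = 0.052 to 0.08).

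Mouse numbers were not treated as pairs. Same-numbered livers correlated at 0.019 to 0.39 in their deviations, 4 of 6 above 0.1, and 3 of 6 best with their own number, a hint from the data and not the design. With the mouse number as a block 1619 genes and 0 of the 9 assembly genes were called, *Gpat3* (-0.63, adjusted p = 0.060) and *Plpp1* (-0.18, 0.086) were lost, and *Agpat4* (0.32, 0.045), *Mboat2* (0.23, 0.016) and *Plin4* (-0.27, 0.047) were gained.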
